A study of Mus musculus with 6 samples.

Results

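Transcripts of voltage-gated potassium channels that end the cardiac action potential were followed in ventricles of dystrophic mice with and without finerenone, a non-steroidal antagonist of the mineralocorticoid receptor. The 7 genes, Kcnd2, Kcnd3, Kcnip2, Kcna5, Kcnh2, Kcnq1 and Kcne1, were taken by symbol from 30063 genes on the array, and each was represented by a single transcript cluster, the array's unit for one transcribed locus. In the finerenone group, 3 male mice ate Teklad chow with 100 ppm of the drug from weaning at 4 weeks of age. The untreated group held 3 male mice on the same chow without the drug, and all 6 were 20 weeks old. Both groups shared the Het genotype, which is dystrophin-deficient and utrophin haplo-insufficient (utrn+/-; mdx), on a C57BL/10 background. Mice without the dystrophic genotype were not part of the comparison, so a difference between groups cannot be placed against a healthy heart. Each mouse gave 1 Affymetrix array, and the number of arrays limits the precision.

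In the working ventricle, potassium leaving the myocyte through voltage-gated channels restores the resting potential after each beat. In mice the fast transient outward current does much of this work. It flows through pores of Kv4.2 (Kcnd2) and Kv4.3 (Kcnd3), and KChIP2 (Kcnip2), a calcium-binding auxiliary subunit, promotes the delivery of these pores to the membrane and slows their inactivation. Kv1.5 (Kcna5) conducts a slowly inactivating current that also shapes the mouse action potential. The rapid and slow delayed rectifiers, built from ERG1 (Kcnh2) and from KvLQT1 (Kcnq1) with its small partner minK (Kcne1), dominate in larger mammals and are minor in the adult mouse ventricle.

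None of these 7 transcripts passed the test between groups. Log2 differences, finerenone minus untreated, ran from -0.10 (Kcna5) to 0.36 (Kcnip2), with 3 genes higher and 4 lower and a median of -0.04, beside a median of 0.03 over all 30063 genes. In limma 0 of the 7 passed an adjusted p of 0.05, where 0% of all genes passed, and 0 of the 7 reached an unadjusted p below 0.05, where 7.81% (2347 genes) did. The 3 finerenone values overlapped the 3 untreated values in every one of the 7 genes, while the groups did not overlap for 12.3% of all genes. For 5 genes (all but Kcnd3 and Kcne1, which were near or below the negative controls), 95% intervals of the fold change were read gene by gene. They lay between 0.668 (lower bound, Kcnq1) and 1.95 (upper bound, Kcnip2), so none of the 5 intervals reached a fold of 2 in either direction. Kcnh2 and Kcnq1 were less clear of background: 14.2% to 23.7% and 10.6% to 19.9% of negative control probe sets were as bright or brighter. For Kcnd2, Kcnip2 and Kcna5 this share was at most 3.56%. With finerenone replicate 1, 2 or 3 or untreated replicate 3 left out, the upper bound for Kcnip2 was 2.03 to 2.24, and among genes with a mean signal of at least 6 it was close to 2, while without untreated replicate 3 that for Kcnd2 was 2.02. In bulk tissue, fewer cells of a type and less RNA per cell cannot be told apart.

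Promoters of 2 genes of the fast transient outward current are shown here, because Kcnip2 had the widest difference of the 7 and Kcnd2 the widest spread within groups. Each window runs from 250 bases before to 50 bases after the start of the gene, 5′ to 3′ on the gene's strand, from RefSeq on GRCm38.p6. That of Kcnip2 is chr19:45816014-45816313 on the minus strand and that of Kcnd2 is chr6:21215096-21215395 on the plus strand. Capitals mark CACCC or its reverse complement GGGTG, the core of elements that Krüppel-like factors bind.
Kcnip2: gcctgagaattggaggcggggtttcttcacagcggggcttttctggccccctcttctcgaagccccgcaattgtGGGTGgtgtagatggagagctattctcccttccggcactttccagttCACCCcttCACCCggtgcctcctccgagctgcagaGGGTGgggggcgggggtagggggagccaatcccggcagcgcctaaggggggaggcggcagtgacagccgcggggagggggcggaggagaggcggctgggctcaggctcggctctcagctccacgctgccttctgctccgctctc
Kcnd2: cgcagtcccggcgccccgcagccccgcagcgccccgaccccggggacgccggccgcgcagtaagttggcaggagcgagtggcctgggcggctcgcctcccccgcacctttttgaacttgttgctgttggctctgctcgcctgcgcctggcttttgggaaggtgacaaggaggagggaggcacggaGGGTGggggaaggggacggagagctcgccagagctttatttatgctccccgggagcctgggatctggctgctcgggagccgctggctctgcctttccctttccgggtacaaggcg
The motif was searched on both strands and stood 4 times in the Kcnip2 window and 1 time in that of Kcnd2. It also stood 4 times in the window of Kcnh2, 3 times in that of Kcnd3 and 2 times in that of Kcna5. All 5 windows that RefSeq gave for the 7 genes (Kcnd2, Kcnd3, Kcnip2, Kcna5 and Kcnh2) held it, as did 57.5% of 32851 promoters of that length. The 5 windows were 55.0% to 74.3% G and C, against a median of 52.7% over all promoters. AGAACA with its reverse complement TGTTCT, the half-site of corticosteroid receptors, was in 0 of the 5 and in 19.0% of all promoters, and CACGTG, the E-box of clock factors, was in 0 of the 5 and in 7.15%.

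Signals are taken as log2 values from RMA, which corrects background, normalizes arrays and summarises probes, since the submitters' processing notes name RMA. Values ran from 1.94 to 19.93, a range taken as that of log2 signals, which does not show that RMA alone was applied. Whether the authors rescaled the signal further is unknown, so a unit of the scale may not be exactly a doubling of signal. Medians of the negative control probe sets were 5.04 to 5.33 across arrays, and levels near these values are close to background. Cardiomyocyte markers stood above the negative controls, and atrial markers were mixed. The tissue label of ventricle was taken as given. Cardiac troponin T (Tnnt2) measured 19.92 to 19.93, close to the highest value measured (19.93), and the ventricular light chain Myl2 measured 11.94 to 12.66. Of 6 atrial markers, 3 had means at or below the highest negative control median, among them the light chain Myl7 (4.72 to 5.93). The other 3 lay above it, with Nppa at 17.85 to 19.59, Tbx5 at 8.43 to 9.11 and Myl4 at 5.39 to 5.80. Neuronal genes were read because neurons too can express Kv4 channels. Transcripts of Th, Dbh, Prph and Nefl stood at 3.48 to 4.36, which says little of axons in the tissue. Uchl1, also neuronal, measured 5.67 to 6.14 and Cdh19, of Schwann cells, 6.62 to 7.41, above the negative controls. Untreated replicate 1 had the lowest mean correlation with the other arrays (0.990, against 0.992 to 0.993 in the other 5). The same array had the highest negative control median (5.33). It separated positive from negative control probe sets least (area under the curve 0.821, against 0.831 to 0.849 in the other 5). It also had the lowest mean of 11 cardiomyocyte markers (17.46) and the highest of 10 endothelial markers (12.03).

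Kcnip2, the auxiliary subunit of the Kv4 channels, had log2 signals of 11.29, 11.24 and 11.37 in finerenone mice, against 10.51, 11.53 and 10.79 in untreated mice. The treated values were close together and lay inside the untreated range, whose lowest and highest values came from untreated replicates 1 and 2. The group means were 11.30 ± 0.07 with finerenone and 10.94 ± 0.52 untreated (SD, n = 3 each), and the log2 difference of 0.36 ± 0.25 (SE, 1.28-fold) did not pass in limma (adjusted p = 0.776). Single untreated mice set its size. Without untreated replicate 1 it was 0.14, and without untreated replicate 2 it was 0.65, at an unadjusted p of 0.00213 and an adjusted p of 0.490 in limma. Without that same array, 2783 of all 30063 genes had an unadjusted p below 0.05 in limma. The Kcnip2 difference was 0.28 after quantile normalization and after cyclic loess. Cardiomyocyte markers averaged 17.54 to 17.60 in finerenone mice and 17.46 to 17.68 in untreated mice, and endothelial markers 11.22 to 11.44 in finerenone mice and 11.41 to 12.03 in untreated mice. Some cardiomyocyte markers lay near the highest signal measured (19.93): Tnnt2 (19.92 to 19.93), Myh6 (19.60 to 19.65), Atp2a2 (19.58 to 19.66) and Pln (19.46 to 19.48). Signals so near the top may hardly move, so the mean may show little of a change in cardiomyocyte share. The part of cardiomyocyte and endothelial markers in the Kcnip2 values was not tested.

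Kcnd2, the Kv4.2 pore, had log2 signals of 8.81, 9.57 and 9.60 in finerenone mice, against 9.27, 8.82 and 9.44 in untreated mice. In each group 1 mouse stood low, finerenone replicate 1 and untreated replicate 2, and the groups covered nearly the same range. The log2 difference was 0.15 ± 0.26 (SE), with a 95% interval of -0.48 to 0.78 (limma adjusted p = 0.924). Leaving out finerenone replicate 1 gave 0.41, and leaving out untreated replicate 2 gave -0.03.

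Kcnd3, the Kv4.3 pore, was dim, with log2 signals of 5.44, 5.43 and 5.57 in finerenone mice, against 5.64, 5.53 and 5.49 in untreated mice. Between 40.6% and 44.7% of the negative control probe sets were as bright or brighter on the same array. The 6 values were close together and overlapped, and the difference was -0.07 ± 0.09 (SE, limma adjusted p = 0.877). A signal so near background says little of how much Kv4.3 transcript the ventricles held.

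Kcna5, the Kv1.5 pore, had log2 signals of 9.37, 9.40 and 9.45 in finerenone mice, against 9.28, 9.79 and 9.44 in untreated mice. The treated mice again lay within a narrow band inside the untreated range, with untreated replicate 1 lowest and untreated replicate 2 highest, as for Kcnip2. The difference was -0.10 ± 0.14 (SE), with a 95% interval of -0.43 to 0.23 (limma adjusted p = 0.896), and was 0.04 without untreated replicate 2.

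Among the delayed rectifier genes, Kcnh2 (ERG1) had log2 signals of 6.69, 6.82 and 7.06 in finerenone mice, against 6.64, 6.83 and 7.23 in untreated mice. The groups covered nearly the same values, and the difference was -0.04 ± 0.18 (SE, limma adjusted p = 0.977). Kcnq1 (KvLQT1) had log2 signals of 7.07, 6.86 and 7.55 in finerenone mice, against 6.94, 7.44 and 7.32 in untreated mice. Its highest and lowest values both came from treated mice, and the difference was -0.07 ± 0.21 (SE, limma adjusted p = 0.963). For Kcnh2 14.2% to 23.7% and for Kcnq1 10.6% to 19.9% of negative control probe sets were as bright or brighter.

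Kcne1 (minK) stood below the negative control medians in all 6 mice, with log2 signals of 4.79, 4.51 and 4.63 in finerenone mice, against 4.57, 4.29 and 4.52 in untreated mice. The 2 groups overlapped, and the difference of 0.18 ± 0.12 (SE) did not pass in limma (adjusted p = 0.756). At this signal a transcript cannot be told apart from background.

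**Figure D1:**
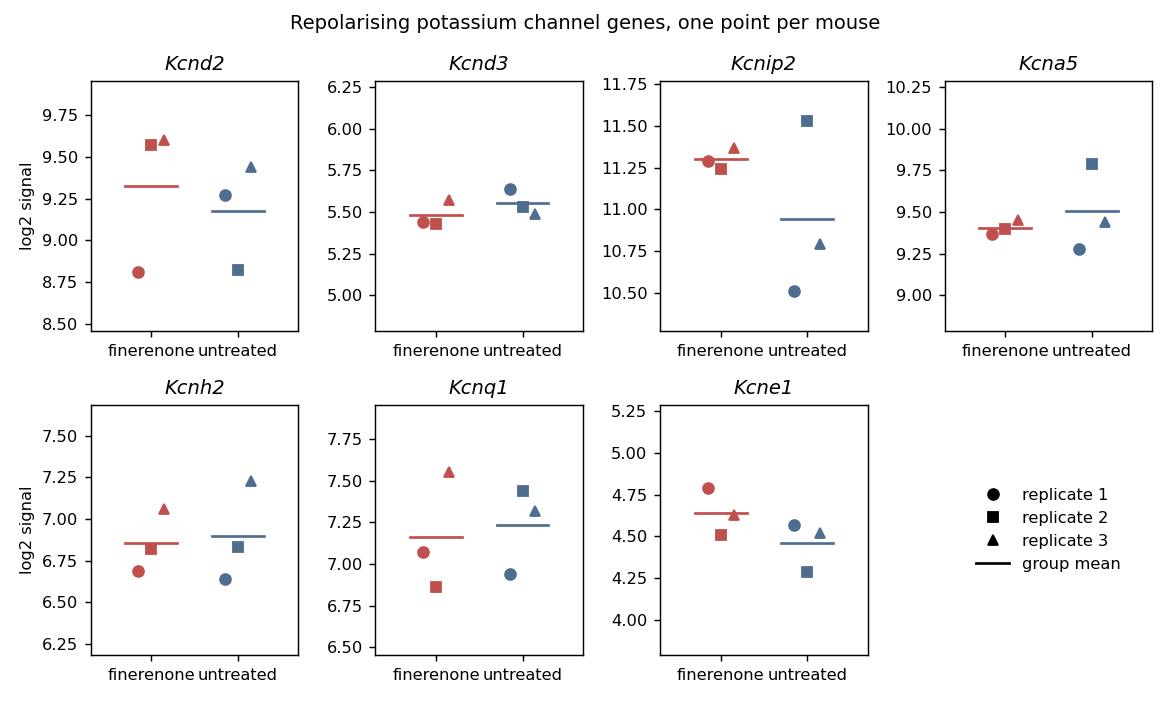
Log2 signal (vertical axes, each spanning 1.5 log2 units) of the 7 channel genes in finerenone and untreated mice; each point is 1 mouse, marker shapes give the replicate number and lines the group means (n = 3 each). The groups overlap in every panel, and the treated values of Kcnip2 (11.24 to 11.37) and Kcna5 (9.37 to 9.45) lie close together inside wider untreated ranges.

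The 7 genes differed in how much they varied between mice of the same group. The within-group SD of Kcnd2 was 0.39, larger than that of 92.9% of 1400 genes whose mean signal lay within 0.5 of it. Kcnq1 (0.31, larger than 89.0% of 2391 such genes), Kcnip2 (0.37, larger than 88.1% of 733) and Kcnh2 (0.25, larger than 81.9% of 2558) also varied more than most genes of like signal. Kcna5 (55.6%) and Kcne1 (48.0%) lay near the middle, and Kcnd3 (17.4%) varied less than most. For Kcnip2 the range was 0.13 in finerenone mice and 1.02 in untreated mice, and the ratio of untreated to finerenone range, 7.68, exceeded that of 97.8% of all genes. For Kcna5 the range was 0.08 in finerenone mice and 0.51 in untreated mice, with a ratio of 6.31, above 96.9% of all genes. The median ratio over all genes was 1.05, and the other 5 members had ratios of 0.711 to 1.60. Untreated replicate 2 carried much of both ratios, which without it were 2.10 for Kcnip2 and 1.99 for Kcna5, and without untreated replicate 1 they were 5.58 and 4.31 (checks chosen after seeing the data). These percentiles describe 6 mice, and the difference in spread between groups was not tested.

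**Figure D2:**
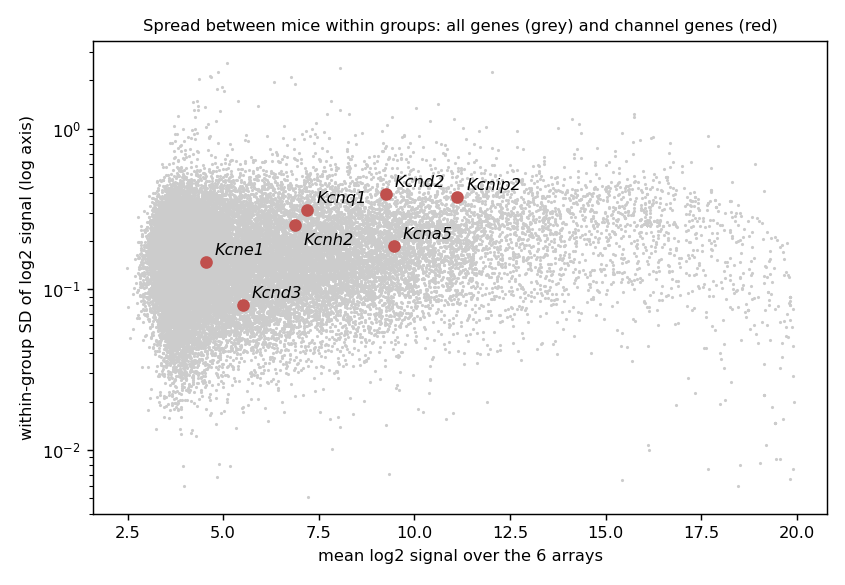
Within-group SD of the log2 signal (vertical, log axis) against the mean log2 signal over the 6 arrays (horizontal) for all 30063 genes in grey and the 7 channel genes in red. Kcnd2, Kcnip2, Kcnq1 and Kcnh2 sit in the upper part of the genes of like signal, at SDs of 0.25 to 0.39, and Kcnd3 (0.08) in the lower part.

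Of the other pore-forming subunits of voltage-gated potassium channels, 31 were analysed. In limma 0 of the 31 passed the adjusted threshold and 0 had an unadjusted p below 0.05, with 16 higher, 15 lower and a median log2 difference of 0.00. Only 2 of them, Kcna3 and Kcng2, had a mean above the highest negative control median of 5.33. Kcng2, a modulatory subunit that forms no channel alone, averaged 6.45 ± 0.12 in finerenone mice and 6.49 ± 0.21 in untreated mice (SD, n = 3 each), a difference of -0.03 ± 0.13 (SE). Kcna3, the Kv1.3 pore known from lymphocytes, differed by -0.11 ± 0.12 (SE). Kcna4, the Kv1.4 pore of the slow transient outward current, measured 3.85 to 3.89 in finerenone mice and 3.82 to 4.24 in untreated mice, below the negative control medians, with a difference of -0.22 ± 0.13 (SE, limma adjusted p = 0.720).

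All 12 other auxiliary subunits were analysed, 5 higher and 7 lower, with a median log2 difference of -0.01, and in limma 0 passed the adjusted threshold and 0 had an unadjusted p below 0.05. Kcnip3, a relative of KChIP2 also known as DREAM, was the 1 subunit above the negative control medians, at 6.52 ± 0.13 in finerenone mice and 6.43 ± 0.15 in untreated mice (SD, n = 3 each), a difference of 0.09 ± 0.11 (SE). Kcne2, a single-span subunit of the minK family, measured 4.46 to 4.73 in finerenone mice and 4.19 to 4.43 in untreated mice, so that the groups did not overlap, at a signal below background (difference 0.24 ± 0.11, SE, limma adjusted p = 0.667). Groups also did not overlap for 2 of the 31 pore genes, Kcnh7 and Kcnq3, which measured at most 3.69 and 4.40, beside the 12.3% of all genes given above. Kcne4, which inhibits some Kv channels, differed by -0.33 ± 0.25 (SE), and Kcnip1, Kcnab1 and Dpp6 by -0.06 to -0.01, all with means below the negative control medians.

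**Figure D3:**
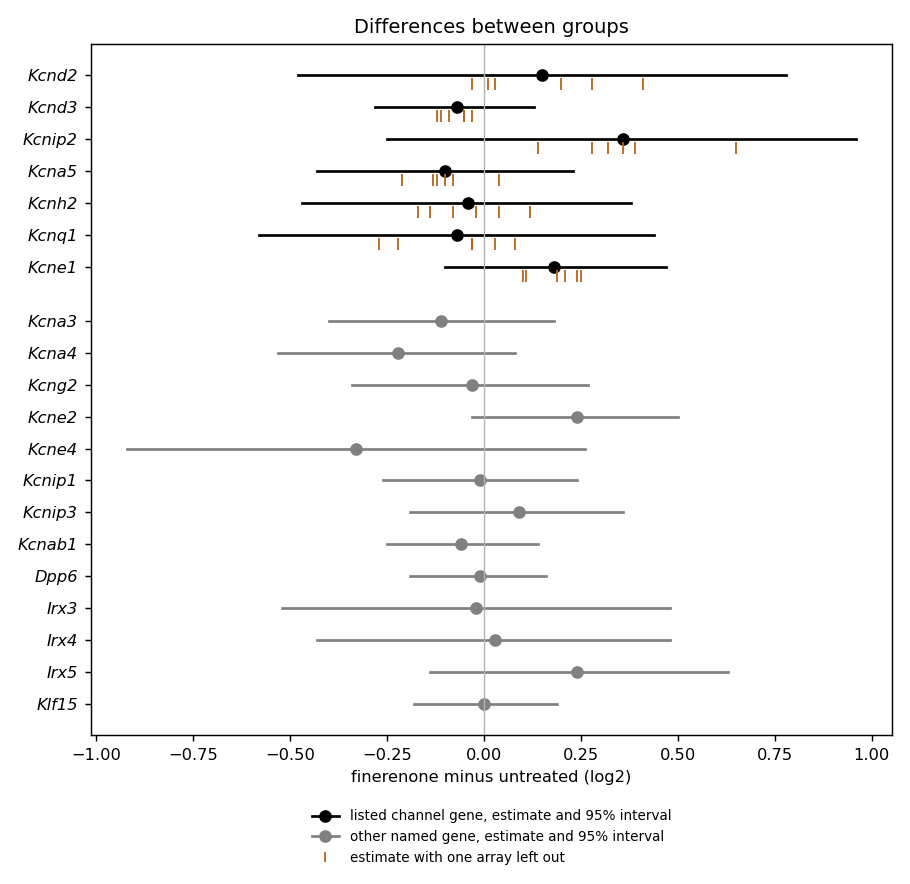
Log2 difference, finerenone minus untreated (horizontal), with its 95% interval from limma, for the 7 channel genes in black and 13 other named genes in grey; orange ticks give the estimate of the 7 genes with each array left out in turn. Every interval crosses 0, and the ticks of Kcnip2 reach from 0.14 to 0.65 and those of Kcnd2 from -0.03 to 0.41.

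Transcription factors that act on these channel genes in mice did not pass either, with 0 of 4 at an adjusted or an unadjusted p below 0.05 in limma. Klf15, a Krüppel-like factor that drives Kcnip2 in mouse heart, averaged 8.22 ± 0.05 in finerenone mice and 8.22 ± 0.07 in untreated mice (SD, n = 3 each), with a 95% interval of the difference of -0.18 to 0.19. Irx5, an Iroquois factor that represses Kcnd2 toward the inner wall of the mouse ventricle, was below the negative control medians and differed by 0.24 ± 0.16 (SE). Its relatives Irx3, of the conduction system, and Irx4, of the ventricular myocardium, differed by -0.02 ± 0.21 and 0.03 ± 0.19 (SE).

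In 2 mice Irx3 and Irx4 stood opposite to Kcnd2, a pattern seen only after the values were known. Irx3 had log2 signals of 6.91, 6.52 and 6.22 in finerenone mice, against 6.36, 6.84 and 6.51 in untreated mice. Irx4 had 6.73, 6.20 and 6.06 in finerenone mice, against 6.16, 6.46 and 6.29 in untreated mice. Finerenone replicate 1 and untreated replicate 2, the mice with the lowest Kcnd2, thus had the highest Irx3 and Irx4 of the 6. Irx5, at 3.94 to 4.52, lay below the negative controls, and no order was read from it. In the other 4 mice the order did not hold throughout: untreated replicate 1 had lower Irx3 and Irx4 than untreated replicate 3 and also lower Kcnd2. The relation was not tested.

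**Figure D4:**
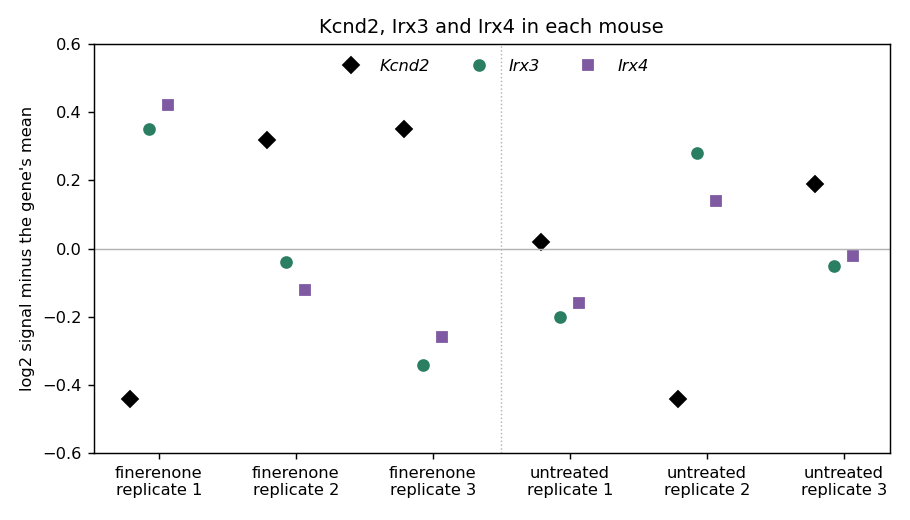
Log2 signal minus the gene's own mean over the 6 mice (vertical) for Kcnd2, Irx3 and Irx4 in each mouse (horizontal), finerenone left of the dotted line. Kcnd2 is lowest (-0.44 in both) in finerenone replicate 1 and untreated replicate 2, where Irx3 (0.35 and 0.28) and Irx4 (0.42 and 0.14) are highest.

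Likeness between array profiles was measured as the mean absolute difference of the 6 centred log2 values, against the other members and listed genes above the negative control medians (11 or 12 candidates). The closest gene to Kcnip2 was Kcnip3 at 0.25, where the mean deviation of Kcnip2 from its own mean was 0.31. Kcnd2 was closest to Kcng2 (0.24, own deviation 0.29), Kcnh2 also to Kcng2 (0.15, own deviation 0.18), and Kcnq1 to Kcna5 (0.17, own deviation 0.24). Kcna5 was closest to Kcnd3 (0.12, own deviation 0.11), Kcnd3 to Klf15 (0.09, own deviation 0.06) and Kcne1 to Klf15 (0.10, own deviation 0.11). By this measure a gene that hardly moves scores about the member's own deviation, whatever its pattern. Klf15 was nearly flat, with centred values of -0.07 to 0.06. For Kcna5 and Kcnd3 the closest gene lay farther off than their own deviation. Closeness here was therefore not read as a shared profile.

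Markers of other cell types in the same arrays give the setting of these values, as counts of higher and lower genes. They were 7 and 4 for 11 cardiomyocyte genes, 4 and 2 for 6 atrial, 5 and 3 for 8 neuron and Schwann cell, 1 and 8 for 9 smooth muscle and pericyte, 0 and 10 for 10 endothelial, 5 and 2 for 7 fibroblast, 10 and 0 for 10 macrophage, and 5 and 5 for 10 skeletal muscle genes. In limma 0 of these 71 genes passed the adjusted threshold, and 7 had an unadjusted p below 0.05 (Cdh19, Fcgr1, Lyz2 and Mybpc2 higher, Kdr, Pdgfrb and Ptprb lower). Over all genes 17510 were higher and 12553 lower, and 7.81% had such an unadjusted p. The neuron and Schwann cell mean did not overlap between groups, at 4.76 to 4.81 in finerenone mice and 4.68 to 4.73 in untreated mice, but 6 of its 8 genes lay at or below the negative controls, and without Cdh19 the means were 4.42 to 4.48 in finerenone mice and 4.39 to 4.44 in untreated mice and overlapped (a check chosen after seeing the data). The mean of the 7 channel genes was 7.64 to 7.89 in finerenone mice and 7.55 to 7.75 in untreated mice, and overlapped too.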

How the data were processed

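Total RNA of heart ventricles from 6 mice (integrity numbers above 7.3, per the labels' protocols) was hybridised to 1 Affymetrix array each. The deposited values are taken as log2 signals per probe set, from their range and from RMA (Transcriptome Analysis Console and Affymetrix Expression Console being named too), per the submitters' processing notes; versions and build were not given in the sources used here. Of 72688 probe sets, 65956 were transcript clusters. Clusters with 1 platform symbol (30604) were kept, symbols were updated to RefSeq GRCm38.p6 by Entrez identifier or synonym, and the cluster of highest mean was used for the 429 genes with several. No filter on dim genes was applied.

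Groups and replicate numbers came from sample titles. The labels call the mice biological replicates. Finerenone minus untreated was fitted over all genes by limma 3.58.1 under R 4.3.3 (lmFit, eBayes, two-sided, no covariate), adjusted by Benjamini-Hochberg over 30063 genes, threshold 0.05; the fit was tested on simulated data. The channel genes, lists and rules were chosen with earlier results of these data known. Named were the members, a fixed set of relatives and regulators, and up to 2 genes per list and direction above background. Alternatives were quantile, median and cyclic loess normalization, filters on dim genes, other summaries of clusters, a trended robust prior, array weights, a replicate block and each array left out. Tables and plots used Python 3.11.15, pandas 2.3.3 and matplotlib 3.10.9.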

Additional observations from a re-analysis of the deposited data

How the results depend on the processing

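The count of genes past the adjusted threshold was 0 in limma under the 16 alternatives run, as was the count of channel genes. As planned, limma counted 2347 genes at an unadjusted p below 0.05, against 1306 among genes with a mean of at least 6, 1538 among genes at or above the median mean and 4138 over every transcript cluster; with single arrays left out there were 1685 to 2783. Without untreated replicate 2, 1 of the 7 channel genes (Kcnip2) had such a p in limma, beside 2783 of all 30063 genes. In the alternatives that kept all arrays, 0 of 67 channel gene values changed sign. With 1 array left out, 6 of 42 did, and the ranges were -0.03 to 0.41 for Kcnd2, -0.21 to 0.04 for Kcna5, -0.17 to 0.12 for Kcnh2 and -0.27 to 0.08 for Kcnq1; for Kcnip2 (0.14 to 0.65), Kcnd3 (-0.12 to -0.03) and Kcne1 (0.10 to 0.25) the sign held. Among the other named genes the ranges that crossed 0 were -0.10 to 0.07 for Kcnip1, -0.04 to 0.01 for Dpp6, -0.20 to 0.15 for Irx3, -0.18 to 0.16 for Irx4, -0.03 to 0.04 for Klf15, -0.20 to 0.01 for Kcna3 and -0.14 to 0.07 for Kcng2. Klf15 was also -0.02 after quantile normalization, -0.01 after median centring, -0.00 after cyclic loess and -0.00 with array weights, and Kcnip1 was 0.00 with array weights. The cause was not tested. Replicate numbers were shared between groups, but same-numbered mice did not deviate together (correlations of deviations -0.154, 0.058 and 0.059), so the numbers were not taken as pairs; the replicate block gave 0 genes and 0 channel genes past the threshold and 2312 genes at an unadjusted p below 0.05. Signals of Kcne1, Kcnd3 and most other listed subunits near or below the negative controls limit what the arrays could show of them.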
